A study of Homo sapiens with 42 samples.

Results

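The genes of the pre-B cell receptor and of V(D)J recombination were followed across 5 human lines of B-lineage acute lymphoblastic leukaemia whose NSD2 level had been raised or lowered. NSD2 is a histone methyltransferase. The genes were chosen by symbol from textbook roles, with earlier results of these data known: the surrogate light chain genes and their relatives VPREB1, VPREB3, IGLL1 and IGLL5, the signalling genes SYK, BLNK and BTK, and the recombination genes RAG1, RAG2 and DNTT, which are 10 of the 57820 genes in the tables. RNA was sequenced from 42 libraries. Reh, a line with an ETV6-RUNX1 fusion, and 697 carried a vector for NSD2 with a glutamate-to-lysine substitution (EK), one for the wild-type gene (WT) or an empty vector (EV). The lines titled RS411 and SEM, both with KMT2A-AFF1 fusions, and RCH carried an NSD2 hairpin (sh2), a hairpin titled sh5, or a non-targeting hairpin (NT). Each arm had 2 libraries in Reh and 3 in every other line. The sources used here do not give the promoters that drive the vectors, the target sites of the hairpins, or whether an arm is 1 clone or a pool of cells. Nothing in the labels says that the replicates were separate cultures, so p-values measure the spread between these libraries only. In bulk RNA, fewer cells that express a gene and less of its RNA per cell cannot be told apart.

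As background, a pre-B cell that has assembled an immunoglobulin heavy chain tests it by pairing it with the surrogate light chain, which VPREB1 and IGLL1 (lambda 5) form together. VPREB3 is a VpreB-like protein of the same cells, and IGLL5 lies in the lambda light chain locus and resembles IGLL1. The assembled receptor signals through the kinase SYK, the adaptor BLNK and the kinase BTK, and this signal ends surrogate light chain expression and lets light chain genes rearrange. RAG1 and RAG2 form the recombinase that cuts V, D and J segments, and DNTT (terminal transferase) adds bases at the joints. Leukaemias of the B lineage often keep parts of this programme at the stage at which they arose.

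Promoters of the surrogate light chain genes, whose levels moved together in SEM, and of the neighbours BLNK and DNTT, which had similar profiles over libraries, are shown with matches to 3 short motifs in capitals: CCCNNGGG (the core that early B-cell factor binds), CAGGTG (an E-box bound by E proteins such as TCF3) and TGGGAA (the core that Ikaros binds), each searched on both strands. The sequences are from RefSeq (GRCh38.p14), run 5′ to 3′ on the strand of the gene from 250 bases before the start site to 50 after it, and 9 of the 10 genes had such a sequence.
VPREB1 promoter, chr22:22244536-22244835, plus strand: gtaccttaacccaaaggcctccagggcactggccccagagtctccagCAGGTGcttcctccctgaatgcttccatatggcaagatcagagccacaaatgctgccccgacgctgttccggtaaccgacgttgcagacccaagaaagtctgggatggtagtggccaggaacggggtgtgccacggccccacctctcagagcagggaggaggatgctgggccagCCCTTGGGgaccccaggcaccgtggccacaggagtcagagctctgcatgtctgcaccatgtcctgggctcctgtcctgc
VPREB3 promoter, chr22:23754376-23754675, minus strand: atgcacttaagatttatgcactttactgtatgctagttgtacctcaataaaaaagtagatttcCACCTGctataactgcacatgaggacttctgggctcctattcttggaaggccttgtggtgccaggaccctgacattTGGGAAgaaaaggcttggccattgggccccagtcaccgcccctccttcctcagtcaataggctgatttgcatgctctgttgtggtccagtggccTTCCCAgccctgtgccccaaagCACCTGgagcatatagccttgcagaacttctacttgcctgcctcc
IGLL1 promoter, chr22:23580241-23580540, minus strand: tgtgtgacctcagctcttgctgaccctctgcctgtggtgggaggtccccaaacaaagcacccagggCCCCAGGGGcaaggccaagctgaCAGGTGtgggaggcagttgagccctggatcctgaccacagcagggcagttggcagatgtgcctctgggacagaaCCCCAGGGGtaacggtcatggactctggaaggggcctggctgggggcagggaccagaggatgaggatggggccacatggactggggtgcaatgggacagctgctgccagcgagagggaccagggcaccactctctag
BLNK promoter, chr10:96271520-96271819, minus strand: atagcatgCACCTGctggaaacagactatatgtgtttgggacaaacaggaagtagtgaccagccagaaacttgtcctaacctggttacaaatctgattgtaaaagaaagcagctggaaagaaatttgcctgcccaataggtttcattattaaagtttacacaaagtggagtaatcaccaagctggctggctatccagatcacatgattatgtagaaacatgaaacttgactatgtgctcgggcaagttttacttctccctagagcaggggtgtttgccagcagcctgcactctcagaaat
DNTT promoter, chr10:96304184-96304483, plus strand: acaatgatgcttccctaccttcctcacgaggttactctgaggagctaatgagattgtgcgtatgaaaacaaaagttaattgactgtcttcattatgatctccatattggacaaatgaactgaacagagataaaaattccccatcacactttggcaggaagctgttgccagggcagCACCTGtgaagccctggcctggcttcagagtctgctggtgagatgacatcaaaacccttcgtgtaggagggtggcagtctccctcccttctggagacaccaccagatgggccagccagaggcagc

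VPREB1 holds 1 CCCNNGGG at base -29 from its start site and 1 CAGGTG at base -203. IGLL1 holds CCCNNGGG at bases -184, -183, -87 and -86, of which each adjoining pair overlaps, and CAGGTG at base -161. VPREB3 holds CAGGTG at bases -187 and 5 and TGGGAA at bases -111 and -17. BLNK and DNTT each hold 1 CAGGTG, at base -242 in BLNK and base -75 in DNTT. Among 35116 promoters of the same length, 19.1% hold CCCNNGGG, 20.6% hold CAGGTG and 24.0% hold TGGGAA, so single matches of this kind are common. The RAG1 and RAG2 promoters hold no match to any of the 3 motifs. SYK and BTK, whose promoters are not shown, hold matches too. A BTK promoter holds CCCNNGGG at base -116, and SYK promoters hold CAGGTG at bases 15 and -204 and TGGGAA at base -246. A match describes the letters and shows no binding. BLNK and DNTT start 32.9 kb apart on chromosome 10 and are read away from each other, RAG1 and RAG2 are neighbours on chromosome 11, and the 4 surrogate light chain genes and relatives lie on chromosome 22.

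The lines differed widely in these genes before any change of NSD2. Levels are CPM (read counts scaled to library size, here with TMM factors), given for the EV or NT libraries as mean ± SD (n = 2 in Reh, 3 elsewhere) and compared between lines only, since they are not per gene length. Those of 697 come from the reads recovered from the authors' normalized values, and each line was scaled on its own. VPREB1, the V-like part of the surrogate light chain, was at 417 ± 42.8 CPM in RS411, 263 ± 23.6 in RCH, 186 ± 38.8 in 697 and 115 ± 12.2 in SEM, with no overlap between any neighbours in that order. Reh had 0 reads of VPREB1 and of IGLL5 in all of its 6 libraries, where 3 reads would be 0.109 to 0.127 CPM. IGLL1, the other part of the surrogate light chain, averaged 598 ± 82.2 CPM in RS411, 546 ± 22.3 in RCH and 533 ± 52.6 in Reh, whose ranges overlapped in turn, against 405 ± 61.0 in 697 and 213 ± 5.63 in SEM. VPREB3 was at 203 ± 32.4 CPM in 697 and 197 ± 40.9 in RCH, which overlapped, then 148 ± 17.7 in Reh, 85.5 ± 19.5 in RS411 and 24.4 ± 4.18 in SEM. Reh therefore had IGLL1 and VPREB3 reads without VPREB1 reads. IGLL5 averaged 47.9 ± 1.04 CPM in RCH, 29.3 ± 5.17 in 697, 10.3 ± 0.298 in SEM and 1.41 ± 0.950 in RS411, and its counts are uncertain because its span overlaps the lambda locus genes IGLJ1 and IGLC1. VPREB1 lies within the lambda locus (IGL), BLNK overlaps ZNF518A and RAG2 overlaps IFTAP, and the sources used here do not say whether reads were counted by strand.

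The KMT2A-AFF1 lines stood lowest for BLNK, the recombinase genes and terminal transferase. BLNK, the adaptor between SYK and its targets, averaged 179 ± 62.8 CPM in RCH, 139.5 ± 1.45 in Reh and 131 ± 35.2 in 697, against 6.76 ± 1.40 in RS411 and 1.67 ± 0.292 in SEM. DNTT averaged 1699.5 ± 377 CPM in RCH, 1253 ± 272 in 697 and 1116 ± 54.4 in Reh, against 13.9 ± 4.86 in RS411 and 1.17 ± 0.236 in SEM. For both genes the first 3 lines overlapped their neighbours and the other two stood apart. RAG1 averaged 4968 ± 973 CPM in Reh, 2054 ± 854 in RCH, 329 ± 89.1 in 697, 227 ± 68.9 in RS411 and 1.76 ± 0.546 in SEM, where only 697 and RS411 overlapped. RAG2 followed the same order of lines, from 566 ± 40.0 CPM in Reh through 300.3 ± 108, 118 ± 31.4 and 56.0 ± 1.56 to 2.12 ± 0.514 in SEM, with no overlap. SYK was lowest in 697 at 84.1 ± 2.93 CPM and highest in Reh at 407 ± 12.9, and BTK was also lowest in 697, at 9.38 ± 3.35 CPM, and highest in RCH at 202 ± 32.1. No test was run between lines, which differ in far more than these genes.

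**Figure D1:**
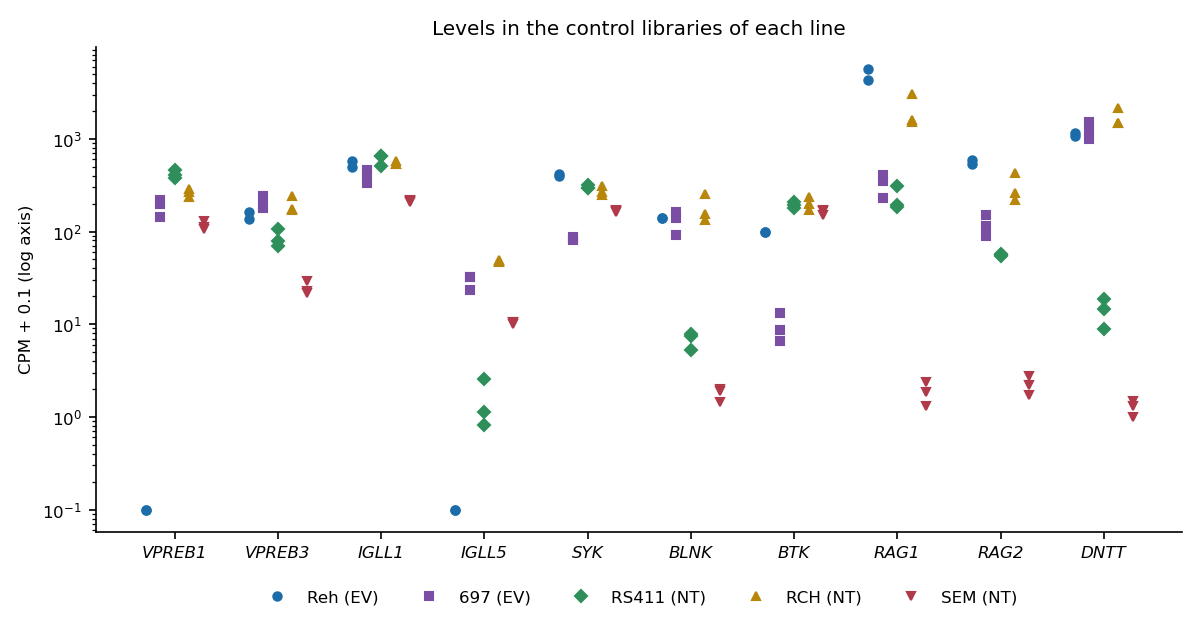
Levels of the 10 genes in each control library (EV in Reh and 697, NT in RS411, RCH and SEM) as CPM + 0.1 on a log axis, with 1 point per library. SEM sits lowest for RAG1, RAG2, DNTT and BLNK, with DNTT at 1.17 ± 0.236 CPM, and Reh has no reads of VPREB1 or IGLL5.

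The NSD2 reads fitted the labels in every line. NSD2 was at 1829.9 and 1531 CPM in Reh EK and 1745 and 1636 in Reh WT, against 576 and 579.9 in Reh EV. In 697, whose values are the authors' normalized counts, it was at 70828 to 102026 in EK and 80839 to 110659 in WT, against 7723 to 10854 in EV. The hairpin arms lay below NT without overlap: RS411 had 155 to 254 CPM in sh2 and 142 to 210.1 in sh5 against 289 to 329 in NT, RCH had 142 to 251 in sh2 and 151 to 226 in sh5 against 327 to 352 in NT, and SEM had 166 to 179 in sh2 and 132 to 146 in sh5 against 331 to 364 in NT. By edgeR the fall passed the threshold of an adjusted p of 0.05 in SEM alone (log2 fold changes -0.99 ± 0.06 for sh2 and -1.28 ± 0.06 for sh5, SE, adjusted p = 8.92e-09 and 1.87e-09), while RS411 (adjusted p = 0.118 and 0.164) and RCH (0.0952 and 0.508) missed it. Libraries held 21876505 to 67651596 reads in named genes. The B-lineage markers CD79A, PAX5 and EBF1 were read in every line, but the B-lineage marker MME (CD10) lay at 0 to 0.464 CPM in SEM.

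SEM was the line in which most of the 10 genes moved. Against NT, sh2 changed 6 of the 10 genes by edgeR at an adjusted p under 0.05, 2 upward and 4 downward, where 27.9% of all 17042 genes tested were called and 13.5% were called higher. The hairpin sh5 changed 8 of the 10, 4 upward and 4 downward, against 21.3% of all genes called and 11.1% called higher. The downward 4 were VPREB1, VPREB3, IGLL1 and IGLL5 with either hairpin, where 14.4% of all genes were called lower with sh2 and 10.2% with sh5. Libraries did not overlap with NT for 6 of the 10 genes with sh2, against 39.4% of all genes, and for 8 with sh5, against 35.6%. The 2 hairpin arms share their NT libraries, here and in the other lines, so their results are given side by side.

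**Figure D2:**
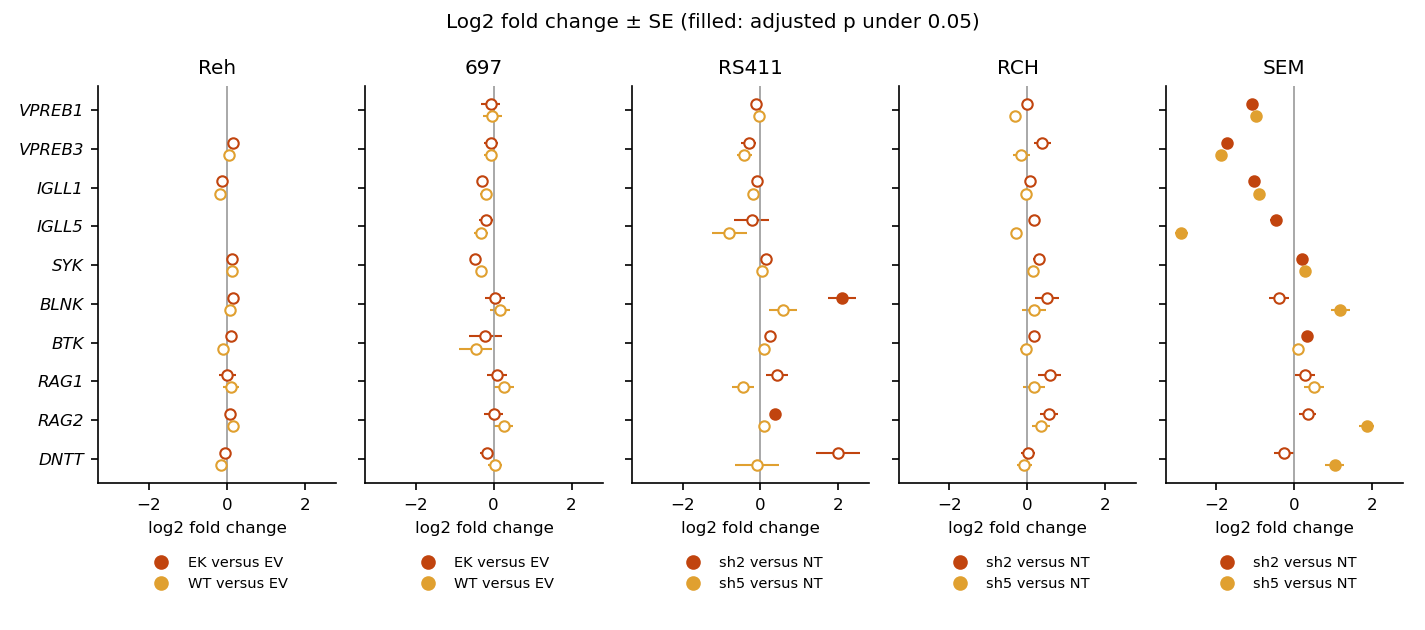
Log2 fold changes with standard errors of the 10 genes in each line, as EK and WT over EV or sh2 and sh5 over NT, where filled points have an adjusted p under 0.05. Filled points are 6 for sh2 and 8 for sh5 in SEM and 2 for sh2 in RS411, BLNK and RAG2.

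In SEM both parts of the surrogate light chain, and VPREB3, fell with both hairpins. VPREB1 was at 56.9, 53.5 and 52.4 CPM in sh2 and at 56.0, 53.1 and 67.7 in sh5, against 129, 111 and 106 in NT. All hairpin libraries lay below all NT libraries, with log2 fold changes of -1.09 ± 0.09 for sh2 (SE, adjusted p = 7.69e-07, edgeR) and -0.97 ± 0.09 for sh5 (4.9e-06). IGLL1 was at 95.2, 109.9 and 110.3 CPM in sh2 and at 96.5, 115 and 132 in sh5, against 218, 207 and 214 in NT. The arms again stood apart, with log2 fold changes of -1.02 ± 0.10 for sh2 (adjusted p = 4.5e-06, edgeR) and -0.90 ± 0.10 for sh5 (2.55e-05). VPREB3 was at 6.78, 8.74 and 6.82 CPM in sh2 and at 7.03, 6.39 and 6.61 in sh5, against 29.2, 21.4 and 22.5 in NT. VPREB3 had the steepest fall with sh2, by 1.71 ± 0.13 on the log2 scale (adjusted p = 1.02e-07, edgeR), and fell by 1.87 ± 0.13 with sh5 (1.42e-07).

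IGLL5 separated the hairpins. It was at 8.52, 7.08 and 6.69 CPM in sh2 and at 0.975, 1.71 and 1.45 in sh5, against 10.4, 10.5 and 9.95 in NT. Its log2 fold change was -2.90 ± 0.17 for sh5 (adjusted p = 2.4e-08, edgeR) and -0.47 ± 0.15 for sh2 (0.025), and the sh2 call was lost without NT replicate 2, sh2 replicate 2 or sh2 replicate 3 (adjusted p 0.0725 to 0.105). Set directly against each other, sh2 stood above sh5 by 2.43 ± 0.17 on the log2 scale (adjusted p = 1.68e-07). The other 3 genes showed no such gap: sh2 minus sh5 was -0.12 for VPREB1 (approximate 95% interval -0.30 to 0.06), 0.15 for VPREB3 (-0.11 to 0.42) and -0.12 for IGLL1 (-0.31 to 0.06).

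The signalling genes did not follow the surrogate light chain downward in SEM. SYK was at 188, 183 and 199 CPM in sh2 and at 202, 192 and 214 in sh5, against 167, 161 and 169 in NT. It rose by 0.20 ± 0.06 on the log2 scale with sh2 (adjusted p = 0.0159, edgeR) and by 0.29 ± 0.06 with sh5 (0.00171), and the sh2 call was lost without NT replicate 2 (0.0505) or sh2 replicate 3 (0.0852). BTK was at 214, 196 and 211 CPM in sh2 and at 184, 166 and 179 in sh5, against 171, 151 and 167 in NT. It rose with sh2 (0.35 ± 0.06, adjusted p = 0.00062, edgeR), while sh5 overlapped NT (0.11 ± 0.06, 0.222, or 0.0366 with the replicate number as a block). BLNK was near the bottom of the scale at 0.946, 1.03 and 1.84 CPM in sh2 and 3.16, 3.74 and 4.57 in sh5, against 1.33, 1.88 and 1.79 in NT. It rose with sh5 (1.19 ± 0.24, adjusted p = 0.00193, edgeR) and overlapped NT with sh2 (-0.39 ± 0.26, 0.307). The difference between the hairpins passed the test for BLNK (-1.58 ± 0.24 for sh2 minus sh5, adjusted p = 0.000379) and for BTK (0.23 ± 0.06, 0.0227), where the BTK call was lost on leaving out any of 4 libraries (0.0536 to 0.127).

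Recombination genes, nearly silent in SEM, were higher with sh5 for 2 of the 3. RAG2 was at 2.10, 2.82 and 3.20 CPM in sh2 and at 6.90, 7.24 and 9.12 in sh5, against 2.12, 1.61 and 2.64 in NT. The sh5 libraries stood above all others, 3.65-fold over NT (log2 fold change 1.87 ± 0.20, adjusted p = 6.96e-06, edgeR), while sh2 overlapped NT (0.35 ± 0.21, 0.25). DNTT was at 0.793, 1.03 and 1.10 CPM in sh2 and at 1.90, 3.07 and 2.25 in sh5, against 1.22, 1.37 and 0.907 in NT. It rose with sh5 (1.04 ± 0.24, adjusted p = 0.00492, edgeR) and not with sh2 (-0.26 ± 0.26, 0.514). The hairpins differed for RAG2 (-1.52 ± 0.19 for sh2 minus sh5, adjusted p = 5.89e-05) and DNTT (-1.30 ± 0.24, 0.00175), making 5 of the 10 genes that differed between them against 12.4% of all genes. The hairpin arms of these 5 genes did not overlap, against 29.7% of all genes. RAG1 stayed between 1.20 and 3.31 CPM in all 9 SEM libraries, with log2 fold changes of 0.27 ± 0.25 for sh2 (adjusted p = 0.48) and 0.52 ± 0.25 for sh5 (0.168).

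**Figure D3:**
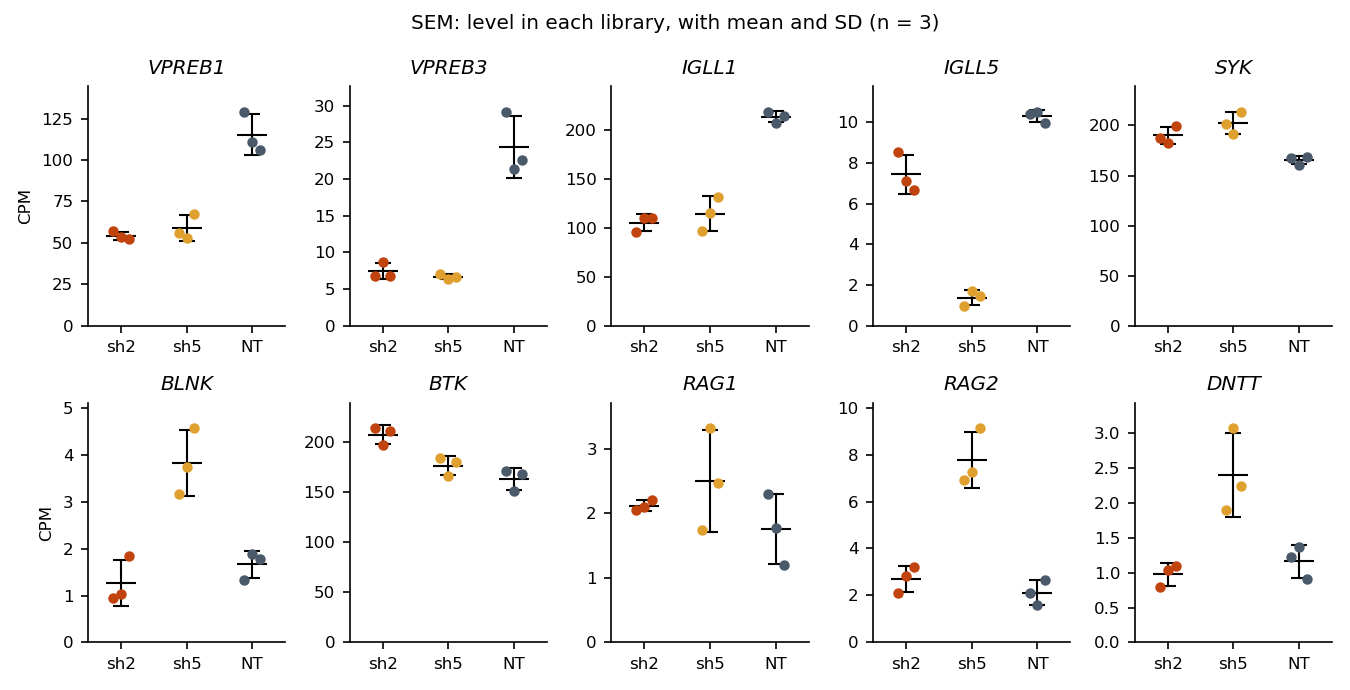
CPM of the 10 genes in each SEM library, in the order sh2, sh5 and NT, with the mean and SD of each arm. VPREB1, VPREB3 and IGLL1 lie lower in both hairpin arms than in NT, while RAG2, DNTT and BLNK lie higher in sh5 alone.

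Markers of other lineages moved in the same SEM libraries. The summed level of 11 myeloid markers was 50.5 to 67.9 CPM in sh2 and 55.0 to 71.3 in sh5, against 26.6 to 33.8 in NT, led by CSF1R, while ELANE had 0 reads and MPO, CD14, S100A8 and S100A9 stayed at or under 0.241 CPM. The 10 T and NK markers summed to 113 to 123 CPM in sh2 and 115 to 143 in sh5, against 239 to 246 in NT, nearly all from LCK, ZAP70 and NKG7, with CD3D, CD3E and CD3G at or under 0.0537 CPM. The 9 B-lineage markers, VPREB1 and IGLL1 among them, summed to 1374 to 1411 CPM in sh2 and 1354 to 1432 in sh5, against 1609 to 1756 in NT. The part of these shifts in the results was not tested.

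RS411 differed from SEM in which genes moved. With sh2, BLNK and RAG2 rose and none fell, 2 of the 10 genes against 1.67% of the 17165 tested, or 0.944% called higher. BLNK was at 35.3, 34.8 and 17.0 CPM in sh2 and at 10.4, 13.8 and 6.32 in sh5, against 7.78, 7.34 and 5.17 in NT. The sh2 libraries stood above all others, 4.26-fold over NT (log2 fold change 2.09 ± 0.37, adjusted p = 0.0371, edgeR), and the sh5 difference missed the threshold (0.57 ± 0.36, 0.612, or 0.0164 with the block). RAG2 was at 72.8, 77.7 and 66.6 CPM in sh2 and at 59.9, 61.5 and 58.7 in sh5, against 55.6, 54.7 and 57.8 in NT. Here too no sh2 library overlapped the rest (0.37 ± 0.07, adjusted p = 0.0295, edgeR). Both calls were lost on leaving out any NT library, sh2 replicate 1 or sh2 replicate 2 (adjusted p 0.103 to 0.146 for BLNK and 0.0589 to 0.125 for RAG2), and the BLNK call also with no filter on low counts (0.0633).

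DNTT, beside BLNK on chromosome 10, had a similar profile in RS411. It was at 62.8, 75.5 and 28.4 CPM in sh2 and at 11.7, 21.9 and 6.09 in sh5, against 14.7, 18.4 and 8.74 in NT. All sh2 libraries lay above all sh5 and NT libraries, with replicate 3 lowest in every arm, and the log2 fold change of sh2 was 1.99 ± 0.56 (adjusted p = 0.131, edgeR). In a fit blocked on the replicate number, which the RS411 libraries bore out as a pairing, the value was 1.97 (adjusted p = 0.000256), and DESeq2 without the block gave 0.0112. BLNK too was lowest in replicate 3 of every arm, NT among them. In sh2 replicate 3, which was lowest of its arm for both genes, NSD2 was at 254 CPM, against 155 and 157 in the other sh2 libraries. The part of this in the result was not tested.

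RAG1 in RS411 was at 303, 378 and 227 CPM in sh2 and at 142, 219 and 139 in sh5, against 191, 306 and 184 in NT. Within each replicate number sh2 was highest and sh5 lowest, so that the arms overlapped while the paired differences did not change sign. Neither hairpin was called without the block (0.41 ± 0.28, adjusted p = 0.486, and -0.45 ± 0.28, 0.618, edgeR), and both were with it, in opposite directions (0.43, 0.00233 for sh2 and -0.44, 0.0038 for sh5). The block also brought VPREB3 under the threshold, lower with sh2 (-0.29, adjusted p = 0.00509, edgeR) and with sh5 (-0.41, 0.00106). It did the same for BTK, higher with sh2 (0.26, 0.00486), which made 6 genes called with sh2 and 3 with sh5. Over the alternatives tried, counts over all genes moved too, from 286 to between 11 and 2495 with sh2. With sh5 they moved from 82 to between 5 and 929. The shares of all genes in the unblocked fit are therefore no background for the 6 and 3. VPREB3 was at 59.3, 82.1 and 66.7 CPM in sh2 and at 50.1, 75.8 and 67.2 in sh5, against 70.1, 107 and 79.1 in NT. Its lowest NT library lay inside the range of both hairpin arms. BTK was at 258, 222 and 214 CPM in sh2 and at 221, 194 and 204 in sh5, against 207, 178 and 195 in NT. Only the sh2 libraries of BTK lay clear of NT.

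The surrogate light chain genes proper showed no fall in RS411 of the size seen in SEM. VPREB1 was at 365 to 415 CPM in sh2 and 381 to 444 in sh5, against 379 to 463 in NT, and IGLL1 was at 517 to 595 in sh2 and 475 to 556 in sh5, against 503 to 646 in NT. All arms overlapped, and their log2 fold changes with sh2 were -0.11 (adjusted p = 0.561, edgeR) and -0.08 (0.721). SYK lay at 308 to 347 CPM in sh2 and 296 to 325 in sh5, against 294 to 314 in NT, and IGLL5 at 0.544 to 2.49 CPM in all 9 libraries. With sh5 no gene of the 10 was called by edgeR (0.478% of all genes were), DESeq2 called 0, and the blocked fit called the 3 named above. None had an unadjusted p under 0.05, where 1932 of the 17165 genes tested had one. Libraries did not overlap with NT for 4 of the 10 genes with sh2 (BLNK, BTK, RAG2 and DNTT), against 21.5% of all genes, and for RAG2 with sh5, against 19.6%. Between the hairpins edgeR called 0 of the 10, against 0.577% of all genes. An unadjusted p under 0.05 was found for 4 of them, and for 2196 of all genes. DESeq2 called 2 between the hairpins, BLNK (1.52, adjusted p = 0.0116) and DNTT (2.07, 0.015). The blocked fit called 4 between the hairpins, BLNK, DNTT, RAG1 and RAG2, all higher in sh2. The hairpin arms of these 4 genes did not overlap, against 17% of all genes.

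**Figure D4:**
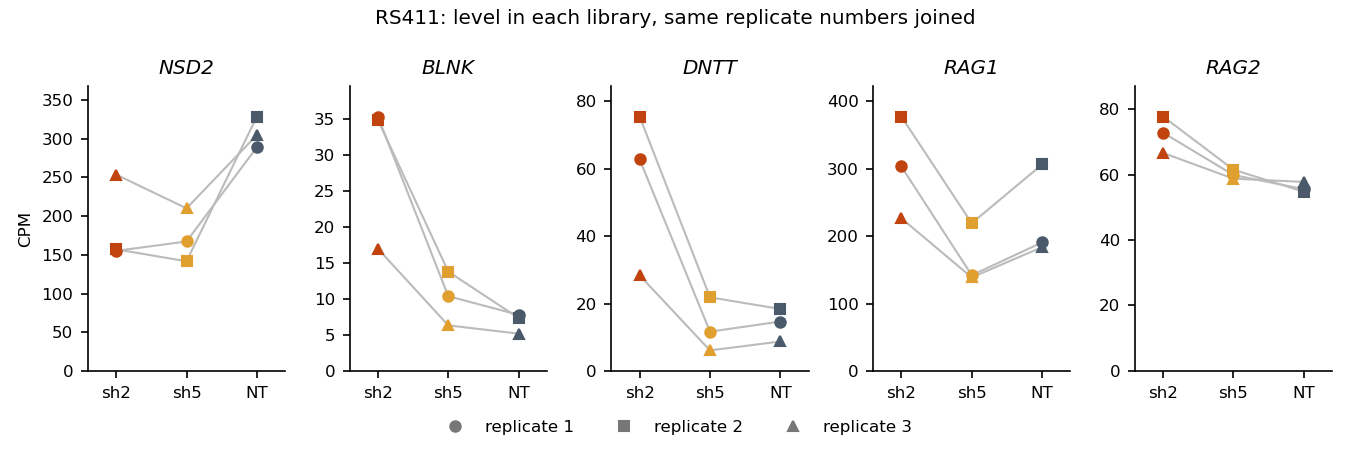
CPM of NSD2, BLNK, DNTT, RAG1 and RAG2 in each RS411 library, in the order sh2, sh5 and NT, with libraries of the same replicate number joined. BLNK and DNTT are highest in sh2 for every replicate number. Replicate 3 of sh2 has both the most NSD2 left, at 254 CPM, and the least BLNK of its arm, at 17.0 CPM. BLNK is lowest in replicate 3 of sh5 and of NT too, at 6.32 and 5.17 CPM.

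The erythroid and megakaryocytic markers in RS411 summed to 4.74 to 10.6 CPM in sh2 and 25.4 to 32.8 in sh5, against 24.0 to 26.7 in NT. ITGA2B gave nearly all of this, and HBB and PF4 stayed at or near 0 reads. The 7 mature B and plasma markers summed to 476 to 562 CPM in sh2 and 397 to 476 in sh5, against 401 to 471 in NT, nearly all from XBP1, with CR2 at 0 reads and MS4A1, CD27 and PRDM1 at or under 0.211 CPM. The part of these shifts in the BLNK and RAG2 results was not tested.

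In RCH none of the 10 genes was called by edgeR with either hairpin, where 1.37% of 17468 genes were called with sh2 and 0.0229% with sh5. An unadjusted p under 0.05 was found for 1 gene with sh2 and 2 with sh5, where 3273 and 706 of the 17468 genes had one. DESeq2 called 0 with each. RAG2 was at 425, 449 and 459 CPM in sh2 and at 481, 315 and 349.8 in sh5, against 423, 260.4 and 218 in NT. The sh2 libraries lay above all NT libraries by a narrow margin set by NT replicate 1 (0.57 ± 0.23, adjusted p = 0.235), and without that library the value was 0.90 with an adjusted p of 0.0487. RAG1 was at 2725, 2679 and 3759 CPM in sh2 and at 3112, 1762 and 2092 in sh5, against 3039.5, 1599 and 1523 in NT, and BLNK at 257, 214 and 293 in sh2 and 301, 133 and 172 in sh5, against 251, 134 and 153 in NT. In sh5 and NT, replicate 1 was highest for all 3 genes. The RAG1 difference was 0.57 ± 0.29 for sh2 (adjusted p = 0.312) and that of BLNK 0.51 ± 0.31 (0.392).

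Surrogate light chain genes in RCH overlapped or differed little. VPREB1 was at 281, 275 and 232 CPM in sh2 and at 219, 215 and 204 in sh5, against 265, 285 and 238 in NT, which gave 0.00 ± 0.12 for sh2 (adjusted p = 0.996, edgeR) and -0.30 ± 0.12 for sh5 (unadjusted p = 0.0326, edgeR). IGLL5 was at 60.0, 55.4 and 46.8 CPM in sh2 and at 41.0, 40.6 and 36.2 in sh5, against 48.9, 46.8 and 48.0 in NT, and the sh5 libraries lay below NT by 0.29 ± 0.13 on the log2 scale (unadjusted p = 0.0459, edgeR). IGLL1 stayed between 495 and 621 CPM and DNTT between 1322 and 2134 CPM over the 9 libraries, with overlapping arms. VPREB3 was at 232 to 299.6 CPM in sh2 and 145 to 239 in sh5, against 172 to 244 in NT. SYK was at 327 to 350.3 CPM in sh2 and 282 to 345 in sh5, against 246 to 313 in NT, and BTK at 219.6 to 239.8 in sh2 and 190.2 to 203 in sh5, against 171 to 235 in NT. The sh2 libraries of SYK lay clear of NT (0.29 ± 0.13, adjusted p = 0.269, edgeR) and those of the other two did not. Between the hairpins edgeR called 0 of the 10 genes (0% of all genes) and DESeq2 called 0. An unadjusted p under 0.05 was found for 3, and for 1714 of the 17468 genes tested. Libraries did not overlap with NT for 2 of the 10 genes with sh2 (SYK and RAG2), against 26.2% of all genes, and for 2 with sh5 (VPREB1 and IGLL5), against 9.1%. Between the hairpins they did not overlap for 3, against 13%. The B-lineage markers in RCH summed to 2374 to 2600 CPM in sh2 and 1913 to 2281 in sh5, against 2171 to 2263 in NT. Among them MME ran from 5.48 to 291 CPM over the 9 libraries. The myeloid markers summed to 14.8 to 21.7 CPM in sh2 and 22.0 to 30.3 in sh5, against 23.8 to 30.5 in NT. The part of these shifts in the RCH results was not tested.

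A joint edgeR fit of the 27 knockdown libraries tested the mean over lines and whether lines differed. The mean over RS411, RCH and SEM was called for 7 of the 10 genes with sh2, against 15% of 20225 genes, and for 5 with sh5, against 5.11%. VPREB1 (-0.38 ± 0.06, adjusted p = 8.61e-05 with sh2, and -0.43, 8.36e-05 with sh5), VPREB3 (-0.53 ± 0.12, 0.00474, and -0.80 ± 0.13, 0.00036) and IGLL1 (-0.33 ± 0.06, 0.000577, and -0.37, 0.000647) fell on average with both. RAG2 rose on average with both (0.44 ± 0.13, 0.0223, and 0.78 ± 0.12, 0.000428), though without SEM NT replicate 2 or SEM sh2 replicate 3 the sh2 mean missed the threshold (0.0664 and 0.0659). SYK (0.22 ± 0.06, 0.00888), BTK (0.27 ± 0.06, 0.00299) and BLNK (0.75 ± 0.23, 0.0344) rose on average with sh2, and the BLNK call was lost on leaving out any of 11 libraries (0.0504 to 0.129). IGLL5 fell on average with sh5 (-1.32 ± 0.16, 2.25e-05).

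The averages hide differences between lines. The test of the difference among the 3 lines was called for 5 of the 10 genes with sh2, against 7.93% of all genes, and for 5 with sh5, against 1.75%. VPREB1, VPREB3 and IGLL1 differed with either hairpin. With sh2 the log2 fold changes of VPREB1 were -0.11 in RS411, 0.00 in RCH and -1.09 in SEM, and those of IGLL1 were -0.08, 0.06 and -1.02 in the same order of lines. BLNK differed among the lines with sh2, at 2.09 in RS411, 0.51 in RCH and -0.39 in SEM, as did DNTT, at 1.99, 0.02 and -0.26. RAG2 differed with sh5, at 0.10 in RS411, 0.35 in RCH and 1.87 in SEM, as did IGLL5.

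Over-expression of NSD2 left all members uncalled in the fits without the replicate number as a block. With the block, SYK alone was called, lower in 697 with EK. In Reh edgeR called 0 of the 8 genes tested with EK and with WT, against 0.213% and 0.219% of 15972 genes, and DESeq2 called 0. No member had an unadjusted p under 0.05, where 982 of all genes had one with EK and 793 with WT. VPREB1 and IGLL5, with no reads, could not be tested there. RAG1 in Reh was at 4360.3 and 5679 CPM in EK and at 4659 and 6004 in WT, against 4279.6 and 5656 in EV. Its values followed the replicate number and hardly the arm (0.01 ± 0.21 for EK and 0.10 ± 0.21 for WT). IGLL1 was at 489 and 484 CPM in EK and at 486 and 458 in WT, against 570.3 and 496 in EV, which differed by -0.13 ± 0.11 for EK and -0.18 ± 0.11 for WT. SYK was at 442 and 447 CPM in EK and at 452 and 442 in WT, against 416 and 398 in EV, with no overlap and log2 fold changes of 0.13 ± 0.10 in both. The other 5 genes tested in Reh had log2 fold changes of -0.04 to 0.17 for EK and -0.14 to 0.15 for WT. VPREB3 was at 163 and 170.2 CPM in EK and 149 and 159 in WT, against 136 and 161 in EV, and DNTT at 1222 and 955 in EK and 1009 and 1014 in WT, against 1155 and 1078 in EV. Arms did not overlap with EV for 5 of the 8 genes in EK, against 27.9% of all genes with 2 libraries an arm, and for 6 in WT, against 30.2%. The 7 mature B and plasma markers in Reh, nearly all XBP1, summed to 289 to 394 CPM in EK and 301 to 325 in WT, against 240 to 278 in EV. The part of this in the Reh results was not tested.

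In 697 limma on log2(normalized count + 1) called 0 of the 10 genes with EK and with WT, against 0.172% and 0.19% of 16310 genes, and edgeR on the reads recovered from these values called 0. SYK was the gene nearest the threshold. It was at 2546, 2869.8 and 3270.3 normalized counts in EK and at 3018, 3201 and 3441 in WT, against 4240.2, 3904 and 4004 in EV. All EK and WT libraries lay below all EV libraries, by 0.49 ± 0.12 for EK (approximate 95% interval -0.73 to -0.26, adjusted p = 0.374, limma) and by 0.33 ± 0.12 for WT (-0.57 to -0.10, 1). With the replicate block, which the 697 libraries bore out as a pairing, EK passed the threshold (-0.49, adjusted p = 0.0326, limma, and -0.47, 0.0312, edgeR on recovered reads) and WT did not (0.159). SYK was the single gene of the 10 with an unadjusted p under 0.05 in either comparison, where 796 of all genes had one with EK and 468 with WT. It was also the only one whose arms did not overlap with EV, against 8.36% of all genes for EK and 6.87% for WT. The 7 mature B and plasma markers of the same libraries, nearly all XBP1, summed to 286 to 331 CPM in EK and 264 to 345 in WT, against 341 to 352 in EV, and the part of this in the SYK values was not tested.

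The other genes of 697 overlapped in all arms. IGLL1 was at 16842, 16574 and 14222 normalized counts in EK and at 17621, 18421 and 14653 in WT, against 22113, 20178 and 16261 in EV (-0.29 ± 0.14 for EK, unadjusted p = 0.0707, limma). VPREB1 was at 10430.0, 5832 and 9596 in EK and at 8678, 6872 and 10668 in WT, against 9516, 6804 and 10504 in EV, with replicate 2 lowest in every arm. RAG1 was at 12861 to 18617 in EK and 13124 to 22621 in WT, against 11167 to 19394 in EV, and DNTT at 47148 to 57008 in EK and 52027 to 69003 in WT, against 47426 to 74115 in EV. RAG2 was at 4261 to 7254 in EK and 5511 to 8377 in WT, against 4234 to 7328 in EV, and BLNK at 4812 to 7593 in EK and 5218 to 8732 in WT, against 4401 to 7798 in EV. BTK was at 304 to 560.3 in EK and 183 to 582 in WT, against 318 to 630.1 in EV. VPREB3 was at 7776 to 10258 in EK and 7563 to 11338 in WT, against 8584 to 11569 in EV, and IGLL5 at 1066 to 1312 in EK and 936 to 1294 in WT, against 1116 to 1570.0 in EV. Between EK and WT, which share the EV libraries in the comparisons above, 0 of the 10 genes were called in 697 by limma or in Reh by edgeR (0% of all genes in each line), and none had an unadjusted p under 0.05. Over all genes, 118 in 697 and 260 in Reh had such a p. DESeq2 in Reh and edgeR on recovered reads in 697 also called 0 of the 10 genes. The EK and WT libraries did not overlap for 3 of 8 genes in Reh, against 23% of all genes, and for 0 of 10 in 697, against 3.51%.

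Of 22 other genes of the pre-B receptor pathway, 12 were called in SEM with sh2, 8 higher and 4 lower, where 27.9% of all genes were called, 13.5% higher and 14.4% lower. With sh5, 12 were called, 8 higher and 4 lower, where 21.3% of all genes were called, 11.1% higher and 10.2% lower. The median log2 fold change of the list was 0.07 with sh2 and 0.01 with sh5, against 0.01 and -0.01 over all genes tested. PRKCB, the kinase that relays the receptor signal to NF-kappa-B, was at 35.9 ± 5.48 CPM in sh2 and 51.2 ± 3.56 in sh5, against 13.7 ± 2.88 in NT (adjusted p = 5.04e-05 and 8.61e-06, edgeR). BANK1, a B-cell scaffold protein, was at 150.02 ± 12.9 CPM in sh2, against 78.5 ± 9.21 in NT (0.93 ± 0.08, adjusted p = 5.42e-07). CD22, an inhibitory co-receptor, fell in SEM with both hairpins (-0.54 with sh2 and -0.44 with sh5). In RCH with sh2, 2 of the 22 were called against 1.37% of all genes, BANK1 (3.40 ± 0.60, adjusted p = 0.0261) and DAPP1, a phosphoinositide-binding adaptor (2.70 ± 0.48, 0.0279), and none was left without NT replicate 2 or 3 or sh2 replicate 1 or 2. In RS411 edgeR called 0 of the 22 against NT with either hairpin (1.67% of all genes with sh2 and 0.478% with sh5), 3 had an unadjusted p under 0.05 with each, DESeq2 called 1 with each, and the blocked fit called 5 with sh2 and 2 with sh5. RCH with sh5 had 0 calls by edgeR (0.0229% of all genes) and by DESeq2, and 2 unadjusted p-values under 0.05. In Reh edgeR called 0 of the 19 tested with EK and with WT (0.213% and 0.219% of all genes), where 3 and 2 had an unadjusted p under 0.05 and DESeq2 called 1 each. In 697 limma (0.172% of all genes with EK and 0.19% with WT) and edgeR on recovered reads called 0 of the 20 tested. There 1 gene with EK and 2 with WT had an unadjusted p under 0.05. Over all genes 3124 had such a p in RS411 with sh2, and the counts for the other comparisons are given above.

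Of 13 other genes that join V(D)J breaks, LIG4, the ligase of end joining, was higher in Reh at 155 ± 4.25 CPM in EK and 163 ± 20.2 in WT, against 70.0 ± 7.67 in EV (SD, n = 2). Both passed the test by edgeR (1.15 ± 0.13, adjusted p = 0.0397, and 1.22 ± 0.13, 0.0318), and both calls were lost on leaving out any library of the arms compared. LIG4 was also higher in RCH with sh2, at 59.6 ± 17.1 CPM against 26.1 ± 6.63 in NT (1.19 ± 0.23, adjusted p = 0.0364), a call that only the fit without sh2 replicate 3 kept. PAXX, a cofactor of end joining, was higher in RS411 with sh2 (0.44 ± 0.08, adjusted p = 0.0251) and in SEM with sh2 (0.31, 0.017) and sh5 (0.37, 0.00792). The RS411 call was lost on leaving out any library but sh2 replicate 3, and the SEM sh2 call without NT replicate 3 or sh2 replicate 1. By edgeR or, in 697, limma, no other gene of this list was called against EV or NT within a line. In SEM this made 1 of 13 with each hairpin, a smaller share than the 27.9% of all genes with sh2 and 21.3% with sh5. It was 1 of 13 in RS411 with sh2, against 1.67% of all genes. Only 12 were tested in Reh and RCH. There 1 was called with EK and with WT, against 0.213% and 0.219% of all genes, and 1 in RCH with sh2, against 1.37%. The blocked fits called 2 in RS411 with sh2 and, in SEM, 3 with sh2 and 2 with sh5.

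Of 17 transcription factors known to act on these genes, 12 were called in SEM with sh2, 1 higher and 11 lower, where 27.9% of all genes were called, 13.5% higher and 14.4% lower. With sh5, 8 were called, 2 higher and 6 lower, where 21.3% were called, 11.1% higher and 10.2% lower. The median log2 fold change of the list was -0.29 with sh2 and -0.15 with sh5, against 0.01 and -0.01 over all genes. IRF4, which acts with IRF8 to end surrogate light chain expression in mouse pre-B cells, was at 63.7 ± 2.67 CPM in sh2 and 114 ± 3.81 in sh5, against 143 ± 11.8 in NT (-1.17, adjusted p = 3.17e-09, and -0.34, 0.00132, edgeR). IRF8 moved the other way, at 274 ± 9.04 CPM in sh2 and 222 ± 4.62 in sh5, against 135 ± 3.59 in NT (1.02 ± 0.05 and 0.71 ± 0.05, adjusted p = 1.22e-09 and 1.55e-07). EBF1, an activator of the surrogate light chain genes in mice, was at 163 ± 12.6 CPM in sh2 and 165 ± 4.16 in sh5, against 226 ± 13.7 in NT (-0.47 and -0.45, adjusted p = 4.37e-05 and 0.000122, edgeR). SOX4 was at 144 ± 5.77 CPM in sh2 and 177 ± 13.6 in sh5, against 250.5 ± 8.44 in NT (-0.80 and -0.50). TCF3, which encodes E proteins, fell with sh2 (-0.23 ± 0.07, adjusted p = 0.0248, edgeR) and was not called with sh5. IKZF1, which encodes Ikaros, also fell with sh2 (-0.25 ± 0.06, adjusted p = 0.00467, edgeR) and was not called with sh5. Its relative IKZF3 fell with both hairpins, to 1.38 ± 0.195 CPM in sh2 and 1.04 ± 0.218 in sh5, against 3.18 ± 0.478 in NT. EBF1, TCF3 and IKZF1 are named here for the motifs above, after their values were seen. Outside SEM a single factor was called against NT, IRF8 in RS411 with sh2 (0.89 ± 0.13, adjusted p = 0.0161, edgeR), a call that only the fit without sh2 replicate 3 kept, while the blocked fit called 5 factors there. In RCH edgeR called 0 of the 16 tested with either hairpin, where 5 with sh2 and 1 with sh5 had an unadjusted p under 0.05 and DESeq2 called 2 with sh2 and 0 with sh5. In Reh it called 0 of 16, where 2 with EK and 2 with WT had an unadjusted p under 0.05 and DESeq2 called 2 and 1. In 697 limma called 0 of 17, with 2 and 1 such p-values, and edgeR on recovered reads called 0. The counts of such p-values over all genes are those given above for the same comparisons.

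Likeness of profiles was measured as Pearson's r of log2(CPM + 1), with each library set against the mean of its line, so that the points share lines, arms and depth. It is given as a description over 33 to 42 libraries among 8765 to 8948 genes. Nearest to VPREB1 were MZB1 (0.834), VPREB3 (0.820) and SLC44A1 (0.788) over 36 libraries of 4 lines, since Reh has no VPREB1 reads. IGLL1 was nearest to CD59 (0.791), TBC1D7 (0.773) and TNFAIP3 (0.748) over all 42 libraries. RAG1 was nearest to OSBPL5 (0.862), HCP5 (0.849) and YPEL1 (0.829), and DNTT to its neighbour BLNK (0.847), PDK2 (0.828) and PALM (0.826), over 33 libraries.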

How the data were processed

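Per the labels' protocols, the 42 libraries were TruSeq stranded total RNA (RiboZero Gold), read on a GAIIx at 54 bases. The submitters' processing notes name Trimmomatic, STAR, featureCounts and the hg19 build, without versions in the sources used here. Raw read counts that the authors deposited were used for Reh, RS411, RCH and SEM. For 697, the normalized signal values deposited by the authors were used, in which each library's counts have 1 divisor, and dividing by the value of 1 read gave whole reads for 100% of values above 0 within 0.001 reads. Gene names that had become dates (27 in each knockdown line, 0.214% to 0.247% of reads) and 6 columns of libraries that match no sample were left out. Reads in named genes ran from 23688482 to 27244031 in Reh, 40664735 to 57179806 in 697, 27767490 to 67651596 in RS411, 21876505 to 54879265 in RCH and 32508206 to 39468598 in SEM, and any floor given in reads covers counting error only.

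Counts entered edgeR 4.0.16 (R 4.3.3) with the 3 arms of a line in 1 fit, TMM factors, filterByExpr and robust dispersions, and quasi-likelihood F-tests were used. For 697, genes averaging 10 or more entered limma 3.58.1 (trended eBayes) as log2(normalized count + 1). The 27 knockdown libraries also entered 1 edgeR fit, which tested the mean over lines and, with 2 degrees of freedom, the difference among lines. Benjamini-Hochberg adjustment ran over all genes of a comparison, and a gene was called below 0.05. The fits were tested on simulated data. Alternatives were RLE factors, no filter on low values, DESeq2 1.42.0, pseudocounts of 5 and 0.5, edgeR on the recovered 697 reads, the replicate number as a block, and leaving out each library. Libraries of the same replicate number deviated together from their arm means in 697, RS411 and SEM (lowest correlation of any such pair 0.484, 0.362 and 0.231), so the number was taken to pair libraries there. In RCH such pairs ran from 0.0372 to 0.778, and pairs of unlike numbers reached 0.467, so pairing there was left unclear. In Reh, which has only 2 numbers, pairs of the same number gave 0.755 to 0.817.

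The 10 genes and the other lists were chosen with earlier results of these data known. The genes named are all 10, NSD2, and from the other lists up to 4 called genes per comparison by smallest adjusted p, apart from EBF1, TCF3 and IKZF1. Some genes that this rule names are left out of the text. Promoter sequences and gene spans are RefSeq's (GRCh38.p14), and no hg19 coordinates were used. Tables and figures were made with pandas 2.3.3, matplotlib 3.10.9 and numpy 2.4.6 under Python 3.11.15.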

Additional observations from a re-analysis of the deposited data

Results flagged for a closer look

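The response to the hairpins differed among RS411, RCH and SEM, by the test of that difference in the joint edgeR fit, for 5 of the 10 genes with each hairpin. With sh2 the adjusted p of the difference was 2.9e-05 for VPREB1, 0.000274 for VPREB3, 4.41e-05 for IGLL1, 0.0225 for BLNK and 0.0259 for DNTT. With sh5 it was 0.00126 for VPREB1, 0.00381 for VPREB3, 0.00243 for IGLL1, 0.000431 for IGLL5 and 0.00506 for RAG2. VPREB1, VPREB3 and IGLL1 fell most in SEM with both hairpins, and not every line showed a fall. In RCH with sh2, VPREB3 averaged 258 ± 36.3 CPM against 197 ± 40.9 in NT (adjusted p = 0.343, edgeR). The BLNK and DNTT changes with sh2 were highest in RS411. The BLNK difference with sh2 was lost on leaving out RS411 NT replicate 3, RS411 sh2 replicate 1 or 2, SEM NT replicate 2 or SEM sh2 replicate 1 (adjusted p 0.0521 to 0.0606). That of DNTT was lost without RS411 NT replicate 1 or 3, RS411 sh2 replicate 1 or 2, or RCH sh2 replicate 1 (0.0507 to 0.0722).

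The SYK levels lay on opposite sides of EV in the over-expression lines, with no call in either line without the replicate block. Its log2 fold change was 0.126 with EK and 0.134 with WT in Reh, where all 4 libraries lay above both EV libraries, against -0.49 and -0.33 in 697, where all 6 lay below the 3 EV libraries. The difference between these lines was not tested.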

How the results depend on the processing

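Over the alternatives tried, 2207 of the values for single genes kept their side of the threshold. A further 42 passed it only under the alternative and 43 missed it only there. No value called in either fit turned round. Changes of direction between uncalled values were not counted, and the tests of a difference among lines have no direction. In 697 with EK, 1 gene (SYK) was called with the replicate block, by limma and by edgeR on recovered reads, against 0 without it. In RS411 the blocked fit called 6 genes with sh2 against 2, 3 with sh5 against 0, and 4 between the hairpins against 0, where DESeq2 called 2. Leaving out 1 library gave 0 to 2 calls with sh2 and 0 to 2 between the hairpins. In RCH, RAG2 with sh2 was called with no low-count filter (0.54, adjusted p = 0.013, edgeR), which made 1 call, and leaving out 1 library gave 0 to 1. VPREB3 between the RCH hairpins was the 1 call with no filter (0.51, 0.0495) and the 1 call with the block (0.57, 0.0398). Whether the replicate numbers pair the RCH libraries is unclear. In Reh, libraries of the same number also deviated together (lowest correlation 0.755). The block there gave 0 calls among the 10 genes in each comparison. It gave 4 of the other pathway genes with EK and 2 with WT, and 4 and 2 of the transcription factors. In RCH with sh2 it gave 4 of the pathway genes, 3 of the joining genes and 3 of the factors. In the joint fit with sh2, the difference among lines was called for 3 to 5 genes on leaving out 1 library, and with sh5 for 8 genes with no low-count filter. With the block, the joint means of RAG1 (0.47, 0.0484) and DNTT (0.61, 0.00217) with sh2 and of SYK (0.17, 0.0107) and BLNK (0.64, 0.00359) with sh5 also passed. The block changed no other call named in the text beyond those given beside the results. The cause of these changes was not tested.

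Counts over all genes also moved under the alternatives, from 286 to between 11 and 2495 in RS411 with sh2. In RCH with sh2 they moved from 239 to between 15 and 1937, against 3915 to 6455 in SEM with sh2. With sh5 they ran from 5 to 929 in RS411 and from 2648 to 5591 in SEM. Between the RS411 hairpins they ran from 20 to 1555. In Reh they ran from 0 to 1027 with EK and from 0 to 629 with WT, and in 697 with EK from 18 to 189. Calls under an alternative therefore have another background than the shares of the main fits. With 2 libraries an arm in Reh, and 3 elsewhere, small changes could not be told from the spread. In SEM, BLNK, RAG1, RAG2 and DNTT lay under 10 CPM, and in RS411 IGLL5 under 3 CPM, which limits what their counts can show.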
